A study of Mus musculus with 24 samples.

Results

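The chromatin of 9 genes was followed through which macrophages stimulate or restrain T cells, or are restrained themselves: Cd80, Cd86, Cd40, Cd274, Pdcd1lg2, Icosl, Cd83, Cd200r1 and Havcr2. A consensus peak, that is a stretch of open chromatin called in at least 1 library and merged over all of them, counted as a member when it overlapped the body of one of these genes or lay within 20 kb of it, and each was given to the nearest of the 9. This gave 139 of 184158 consensus peaks: 27 at Pdcd1lg2, 22 at Cd86, 21 at Cd80, 14 each at Cd274 and Cd200r1, 13 at Havcr2, 10 at Cd83 and 9 each at Cd40 and Icosl. Accessibility was measured by ATAC-seq, which reads out where a transposase can reach the DNA. The 24 libraries were made from BMDMs, macrophages grown from mouse bone marrow, with 6 libraries in each of 4 groups. Wildtype (WT) C57/B6/J and AhR-KO (B6.129-Ahr tm1Bra/J, a disruption of the aryl hydrocarbon receptor gene in all cells) marrow was grown with GM-CSF at 10 ng/ml, TGF-β at 2 ng/ml and 10% serum, and was left unstimulated or given lipopolysaccharide (LPS) at 97 EU/ml on day 6 for 24 h. A calcium ionophore at 5 µM for the last 10 min closed the protocol, and the labels carry this text for every library without separating unstimulated cultures. The study used young adult mice of both sexes.

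In the usual account, a T cell that meets antigen needs a further signal from the presenting cell. CD80 and CD86 give it by binding CD28, and are bound more tightly by the inhibitory receptor CTLA-4, while ICOSL gives a related signal through ICOS. CD40 is the receptor through which T cells in turn license the presenting cell by way of NF-κB, and CD83 is a maturation marker that holds MHC class II and CD86 on the cell surface. PD-L1 (Cd274) and PD-L2 (Pdcd1lg2) bind PD-1 and dampen T cells. CD200R1 and TIM-3 (Havcr2) differ from the rest in being inhibitory receptors on the macrophage itself. LPS is known to raise CD40, CD80, CD86 and PD-L1 on macrophages, and AhR is a transcription factor that small ligands activate and that binds DNA together with ARNT.

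All values below are TMM-scaled CPM of a peak, its read pairs scaled to a common total of read pairs in peaks. A differentially accessible region (DAR) had an adjusted p no higher than 0.05 together with a change of 1.5-fold or more by edgeR's quasi-likelihood test, with the adjustment over all 174193 tested peaks, of which 138 were members. One member, upstream of Cd200r1, was too low to test. Library totals ran from 8.54 to 34.6 M read pairs in peaks, and the shallowest was a WT unstimulated library. The start-site peak of Ahr itself held 20.2 to 24.6 CPM in WT unstimulated and 19 to 22.2 in WT LPS libraries against 11.5 to 15.1 and 11.9 to 16.8 in the AhR-KO groups, a level that does not measure the disruption. Of the macrophage and of the alveolar macrophage markers, 6 of 6 each had a start-site peak, against 0 of 5 T cell and 0 of 4 B cell markers. Start-site peaks were also present for 7 of 8 dendritic cell, 1 of 4 neutrophil, 1 of 2 NK cell and 1 of 3 mast cell markers.

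The 4 sequences below belong to peaks described in the text: the intronic Icosl peak that opened in WT LPS libraries, the Cd83 peak with the smallest p for LPS in both genotypes, the upstream Cd40 peak with the smallest p among those higher in unstimulated AhR-KO, and the downstream Cd83 peak whose response to LPS differed between genotypes. The first is the whole peak and the others are the central 300 bases, on the forward strand of mm10. Capitals mark the matches, on either strand, to the 6 motifs searched below. 
Icosl intron, chr10:78071382-78071550: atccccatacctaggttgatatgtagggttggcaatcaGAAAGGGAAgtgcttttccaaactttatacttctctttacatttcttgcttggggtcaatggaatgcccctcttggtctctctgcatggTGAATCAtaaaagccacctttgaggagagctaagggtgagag
Cd83 upstream, chr13:43774706-43775005: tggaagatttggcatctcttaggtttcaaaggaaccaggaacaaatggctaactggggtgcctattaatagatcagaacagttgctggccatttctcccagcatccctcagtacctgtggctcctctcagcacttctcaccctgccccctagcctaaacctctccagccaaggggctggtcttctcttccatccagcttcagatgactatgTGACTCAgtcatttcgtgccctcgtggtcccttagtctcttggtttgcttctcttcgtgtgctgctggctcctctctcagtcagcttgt
Cd40 upstream, chr2:165043087-165043386: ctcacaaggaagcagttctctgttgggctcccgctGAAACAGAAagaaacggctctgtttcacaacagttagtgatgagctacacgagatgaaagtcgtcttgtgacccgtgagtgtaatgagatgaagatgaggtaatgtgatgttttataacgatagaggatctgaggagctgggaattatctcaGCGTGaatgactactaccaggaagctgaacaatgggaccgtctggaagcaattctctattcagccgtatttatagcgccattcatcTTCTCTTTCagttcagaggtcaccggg
Cd83 downstream, chr13:43807068-43807367: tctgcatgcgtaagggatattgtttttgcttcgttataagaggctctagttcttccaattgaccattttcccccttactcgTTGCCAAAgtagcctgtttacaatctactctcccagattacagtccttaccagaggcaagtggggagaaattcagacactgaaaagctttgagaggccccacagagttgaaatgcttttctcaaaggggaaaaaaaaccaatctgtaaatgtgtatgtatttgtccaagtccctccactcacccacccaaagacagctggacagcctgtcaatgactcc
The Icosl sequence held a GAAANNGAA match at base 39 and a TGANTCA match at base 128, the upstream Cd83 sequence a TGANTCA match, the Cd40 sequence GAAANNGAA matches at bases 36 and 274 with a GCGTG between them at base 188, and the downstream Cd83 sequence a TTGCNNAA match.

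Taken as a set, the peaks around these genes gained accessibility with LPS in both genotypes. In WT, 55 of 138 tested member peaks rose and 14 fell, or 39.9% and 10.1%, where 25.4% of all tested peaks rose and 21.6% fell. In AhR-KO, 57 rose and 16 fell, or 41.3% and 11.6%, against 27.3% and 21.5% of all tested peaks. The median log2 fold change of the members was 0.33 in WT and 0.45 in AhR-KO, while that of all tested peaks was -0.014 and 0.046. Of the peaks that rose in WT, 46 also rose in AhR-KO, which is 83.6% of the WT and 80.7% of the AhR-KO calls, and 0 moved in opposite directions. These values are bulk averages, so that more cells with an open site and a site more open in each cell cannot be told apart.

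**Figure D1:**
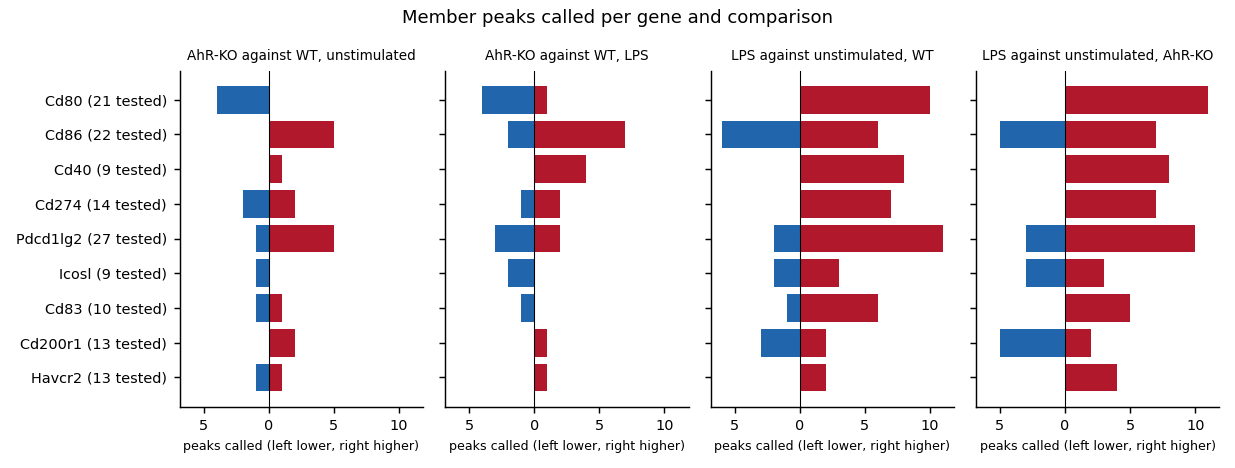
Number of member peaks called as DARs per gene in 4 comparisons, with lower calls to the left of 0 and higher calls to the right, and the number of tested peaks beside each gene. With LPS, Cd80, Cd40 and Cd274 had only higher calls in both genotypes, while Cd86, Icosl, Pdcd1lg2 and Cd200r1 had calls in both directions.

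The receptor Cd40 responded over nearly its whole neighbourhood: 8 of 9 peaks rose with LPS in WT and the same number in AhR-KO, with 0 falling. The risers include a peak 17785 bases past Cd40 that covers the start site of the neighbouring 1700025C18Rik (chr2:165090733-165091028). The Cd40 start-site peak (chr2:165054905-165056974) ran from 13.6 through a median of 14.5 to 15.6 CPM in WT unstimulated, 12.7, 14.3 and 16.9 in unstimulated AhR-KO, 24.9, 30.5 and 35.3 in WT LPS, and 30.2, 33.4 and 37.1 in AhR-KO LPS libraries. Every LPS library was above every unstimulated one of its genotype, and the genotypes overlapped. The log2 change with LPS was 1.07 ± 0.08 (SE, adjusted p = 2.14e-14) in WT and 1.19 ± 0.08 (adjusted p = 4.06e-16) in AhR-KO, both by edgeR. The peak with the highest mean CPM away from the start site, 234 bases past the gene end (chr2:165073182-165075338), rose in WT, from a mean of 3.85 ± 0.466 to 9.57 ± 1.54 CPM, and in AhR-KO, from 4.93 ± 0.510 to 15.6 ± 0.672 (SD, n = 6). LPS and unstimulated libraries did not overlap there in either genotype.

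Of the ligands of CD28, Cd80 gained and Cd86 was mixed. At Cd80, 10 of 21 tested peaks rose in WT and 11 in AhR-KO, and 0 fell. The start-site peak, over an internal start (chr16:38458612-38459241), had medians of 11.3 and 11 CPM in the WT and AhR-KO unstimulated and 16.2 and 16.6 in the LPS groups, without overlap between LPS and unstimulated libraries. Its log2 change of 0.58 ± 0.08 in WT and 0.56 ± 0.08 in AhR-KO (edgeR adjusted p = 1.90e-07 and 2.17e-07) lay just under the fold threshold, so that it was not called. The WT change sat at the edge of that threshold, and it was called with RLE size factors, library totals, no filter, DESeq2 and without WT unstimulated replicate 5, at 0.59 to 0.60. The 10 peaks called in WT lay instead in its introns and flanks, and their mean levels with LPS stayed between 0.844 and 5.28 CPM. They include a peak that ended 1 base before the annotated gene start (chr16:38455298-38455560). The highest peak at Cd80 away from its own starts covers the start site of the neighbouring Adprh (chr16:38451877-38453207), and its means stayed between 31.8 and 39.8 CPM with no call in any comparison.

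At Cd86, 6 of 22 tested peaks rose and 6 fell in WT, and 7 rose and 5 fell in AhR-KO. The start-site peak (chr16:36665225-36666563) had medians of 11.8 and 11 CPM without and 8.83 and 8.34 with LPS, in WT and AhR-KO, and was not called in any comparison. The highest non-start peak, in an intron (chr16:36626692-36627357), fell with LPS, by 0.70 ± 0.06 on the log2 scale for WT and 0.71 ± 0.06 for AhR-KO (edgeR adjusted p = 2.19e-12 and 1.26e-12), from 26.5 to 30.3 CPM in the WT unstimulated libraries to 15.3 to 19.7 in the WT LPS ones. In the opposite direction, a peak 792 bases past the gene end (chr16:36602517-36603077), named here after its values were seen, went from medians of 1.07 and 1.75 CPM to 6.12 and 10.5 in WT and AhR-KO. That is a 5.35-fold rise in WT and a 5.60-fold rise in AhR-KO (edgeR adjusted p = 1.51e-13 and 5.74e-16). Gains and losses at Cd86 were each found both inside the gene and beyond its end.

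Both ligands of PD-1 gained more peaks than they lost. At Cd274, 7 of 14 peaks rose in each genotype and 0 fell. The Cd274 peak of smallest p, 217 bases past the gene end (chr19:29388312-29391861), ran from 4.41 through 5.67 to 6.86 CPM in WT unstimulated, 5.08, 5.64 and 8.33 in unstimulated AhR-KO, 18.5, 22.8 and 26.3 in WT LPS, and 24.1, 24.9 and 29.7 in AhR-KO LPS libraries. LPS libraries were all above unstimulated ones, with a 4.08-fold rise in WT and a 4.17-fold rise in AhR-KO (edgeR adjusted p = 3.29e-16 and 4.07e-17). The Cd274 start-site peak (chr19:29366231-29367765), which also overlaps the body of Plgrkt, had means of 13.7 ± 1.41 and 16.4 ± 0.710 CPM without and 20.4 ± 1.35 and 21.4 ± 2.04 with LPS (SD, n = 6), a change under the 1.5-fold threshold in both genotypes. The highest peak away from the Cd274 start covers the start of Plgrkt (chr19:29361594-29362399) and was not called either, with means between 15.7 and 19.2 CPM.

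Pdcd1lg2, which encodes PD-L2, had 11 peaks higher and 2 lower of 27 with LPS in WT, and 10 higher and 3 lower in AhR-KO. Its start-site peak (chr19:29410535-29411688) was weak, with medians of 2.10 and 2.96 CPM in the unstimulated and 4.09 and 3.83 in the LPS groups. It was called in WT, at a log2 change of 0.92 ± 0.16 (edgeR adjusted p = 4.30e-06), and not in AhR-KO, at 0.46 ± 0.15, and the difference between the genotypes was not called (interaction -0.46 ± 0.22, edgeR adjusted p = 0.158). The highest non-start peak of the gene, in an intron (chr19:29461111-29462963), went the other way, from means of 44.2 and 54.2 CPM to 32.3 and 30.8, and its fall of 0.82 ± 0.08 in AhR-KO was called (edgeR adjusted p = 2.41e-11). A second intronic peak (chr19:29448036-29449075) had log2 changes of -0.77 ± 0.08 in WT and -1.2 ± 0.08 in AhR-KO, both called. Neighbouring downstream peaks moved apart: that at chr19:29478322-29479350 fell 2.24-fold in WT and 2.50-fold in AhR-KO, while that at chr19:29476588-29477595, named after its values were seen, rose 4.05-fold in WT and 3.15-fold in AhR-KO.

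Icosl, the ligand of ICOS, had the only start-site peak of the 8 that was called lower with LPS, in AhR-KO. The peak (chr10:78069008-78070438) ran from 30.2 through 31.7 to 36.6 CPM in WT unstimulated, 21.2, 23.6 and 27.3 in unstimulated AhR-KO, 18.2, 23.1 and 25.5 in WT LPS, and 15.1, 15.9 and 16.7 in AhR-KO LPS libraries. LPS libraries were below unstimulated ones in each genotype, and AhR-KO libraries below WT ones in each condition. The changes with LPS were -0.56 ± 0.07 in WT, just under the fold threshold, and -0.59 ± 0.07 in AhR-KO, just past it (edgeR adjusted p = 1.98e-08 and 9.92e-09). With a replicate block within each genotype the AhR-KO change was -0.58 and no longer called. A downstream peak (chr10:78096022-78097108) fell from medians of 26 and 28.8 CPM to 14.6 and 10.6, and the upstream peak at chr10:78062728-78064537, inside Dnmt3l, rose 2.35-fold in AhR-KO from a median of 9.41 to 22.1 CPM. In WT, all LPS libraries were also above the unstimulated ones at the upstream peak, with a change short of the fold threshold. In all, 3 of 9 peaks rose and 2 fell in WT, and 3 rose and 3 fell in AhR-KO.

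Cd83 gained at 6 of 10 peaks in WT and at 5 in AhR-KO, and lost at 1 and 0. No consensus peak covered its annotated start, and the first one after it (chr13:43784792-43785463), which stands in for it here outside the rule for named peaks, rose 1.83-fold in WT and 1.65-fold in AhR-KO. Its medians were 7.39 and 7.83 CPM without and 13.4 and 12.3 with LPS. The smallest p lay 9172 bases upstream of the gene (chr13:43774108-43775603, the AP-1-containing sequence shown above), which ran from 6.67 through 8.01 to 8.48 CPM in WT unstimulated, 5.30, 6.62 and 7.08 in unstimulated AhR-KO, 19, 20.7 and 24.4 in WT LPS, and 20.8, 24.1 and 27 in AhR-KO LPS libraries. LPS and unstimulated libraries did not overlap, at 2.71-fold in WT and 3.70-fold in AhR-KO (edgeR adjusted p = 6.92e-17 and 1.42e-20).

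Cd200r1 and Havcr2 are the inhibitory receptors of the macrophage itself. At Cd200r1, 2 of 13 tested peaks rose and 3 fell in WT, and 2 rose and 5 fell in AhR-KO. Of all tested peaks, 25.4% rose and 21.6% fell in WT, and 27.3% rose and 21.5% fell in AhR-KO, so that the losses in WT were near that share. The loss of smallest p was at a downstream peak (chr16:44810182-44810496), from medians of 2.59 and 3.41 CPM to 0.642 and 0.638, a fall of 2.05 ± 0.17 on the log2 scale in WT and of 2.21 ± 0.16 in AhR-KO (edgeR adjusted p = 7.36e-13 and 1.81e-14). That peak lay 15204 bases past Cd200r1, beside a peak over the start site of the neighbouring Cd200r4 (chr16:44811330-44813162). The Cd200r4 start peak is itself among the 5 losses in AhR-KO. The Cd200r1 start-site peak (chr16:44765623-44768376) was not called, with means of 19.1 and 20 CPM without and 15.7 and 14.5 with LPS. Its highest other peak, in an intron (chr16:44772054-44774089), had means of 22.7 and 29.4 CPM without and 15.5 and 18.6 with LPS and was called in AhR-KO alone, with no interaction call (-0.11 ± 0.13, edgeR adjusted p = 0.619).

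At Havcr2, 2 of 13 peaks rose in WT and 4 in AhR-KO, and 0 fell. Of all tested peaks, 25.4% rose in WT and 27.3% in AhR-KO, so that gains here were not more frequent in WT and near that share in AhR-KO. The smallest p was at an intronic peak (chr11:46474114-46475269) that ran from 0.660 through 1.36 to 1.59 CPM in WT unstimulated, 1.69, 2.10 and 2.37 in unstimulated AhR-KO, 6.09, 7.38 and 8.54 in WT LPS, and 9.33, 11.6 and 16.1 in AhR-KO LPS libraries. The 4 groups did not overlap, and the rise was 5.57-fold in WT and 5.75-fold in AhR-KO. The strong intronic peak at chr11:46461260-46462433 gave a contrast, since its means lay between 32.6 and 33.8 CPM in the 4 groups and no change was called. The Havcr2 start-site peak (chr11:46454481-46455368) had medians of 30.3 and 23.8 CPM without and 35.6 and 40.1 with LPS, a change of 0.31 ± 0.06 in WT and a called one of 0.77 ± 0.06 in AhR-KO. The interaction, 0.46 ± 0.09 (edgeR adjusted p = 0.000372), passed the p threshold and fell short of the fold.

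**Figure D2:**
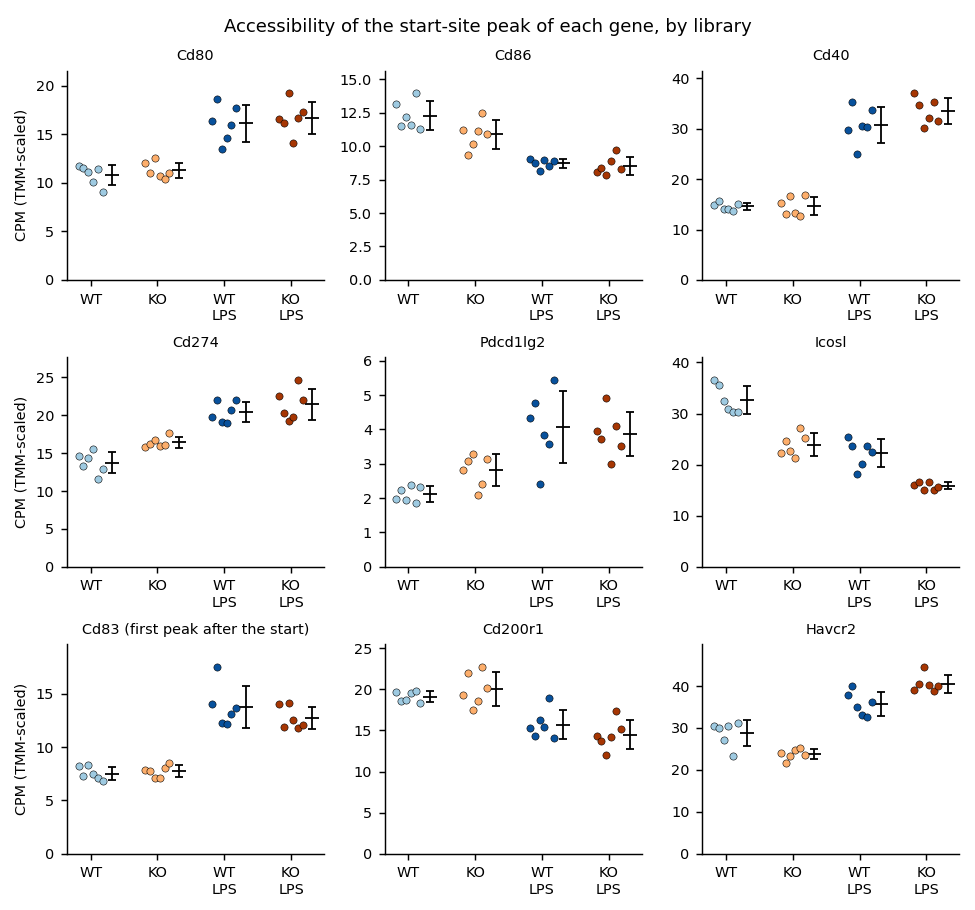
TMM-scaled CPM of the start-site peak of each gene (for Cd83 the first peak after the start) in each library, on axes from 0, with the mean and SD of the 6 libraries of a group beside the points. Cd40 and Cd83 rose with LPS in both genotypes, Icosl was lower with LPS in every library, and the AhR-KO libraries were below the WT ones at Icosl in both conditions.

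**Figure D3:**
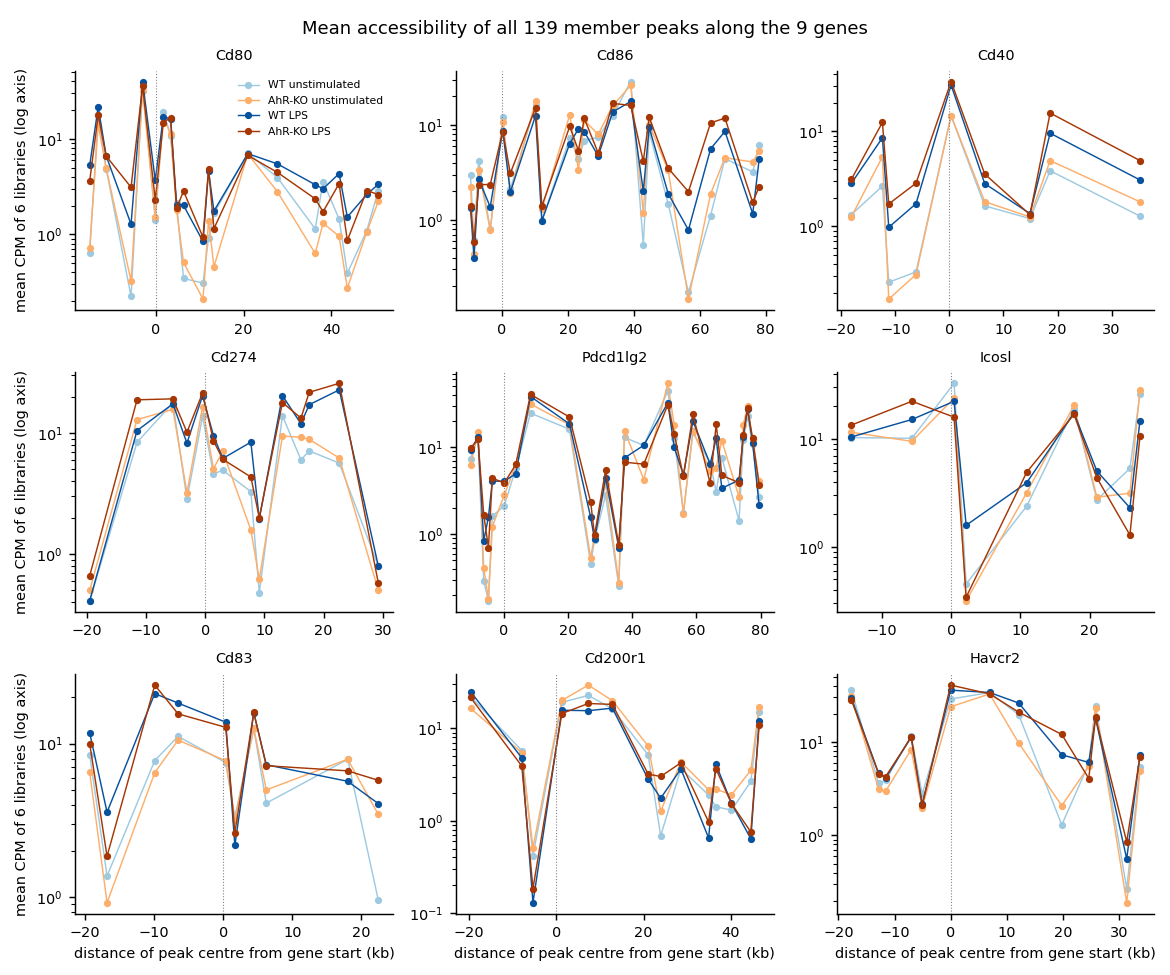
Mean CPM of the 6 libraries of each group (log axis) at all 139 member peaks, placed by the distance of their centres from the gene start in the direction of transcription; lines only join neighbouring peaks, and the dotted line is the gene start. The LPS groups lie above the unstimulated ones over most of Cd40 and around the far end of Cd274, and the groups lie close together at most of the strongest peaks.

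Between the genotypes the members were not called more often than other peaks in the lower direction. In unstimulated cells, 10 of 138 were lower and 17 higher in AhR-KO, or 7.25% and 12.3%, where 12.6% of all tested peaks were lower and 9.95% higher. Lower calls made up 37.0% of the member calls with TMM and 26.9% with RLE size factors, and 56.0% and 48.4% of the calls over all tested peaks. With LPS, 13 were lower and 18 higher, or 9.42% and 13%, against 13.1% and 13.4% of all tested peaks. Of the calls in unstimulated cells, 6 of the 10 lower and 8 of the 17 higher peaks kept their call and direction in LPS-treated cells, or 46.2% of the lower and 44.4% of the higher calls made there. None of the 8 start-site peaks was a DAR between genotypes in either condition, and neither was the first peak of Cd83.

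The start-site peak closest to a genotype call was that of Icosl, at -0.46 ± 0.07 without and -0.48 ± 0.07 with LPS (edgeR adjusted p = 3.54e-06 and 1.26e-06), which is 1.37-fold and 1.40-fold lower in AhR-KO with no overlap between the libraries. The remaining differences lay away from the start sites of the member genes.

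Cd86 had more higher than lower calls in AhR-KO, and so did Cd40 with LPS. Of all tested peaks, 9.95% were higher and 12.6% lower in AhR-KO without LPS, and 13.4% and 13.1% with it. The single Cd40 call without LPS was near that share. At Cd86, AhR-KO was higher at 5 of 22 peaks and lower at 0 in unstimulated cells, and higher at 7 and lower at 2 after LPS. The peak over an internal exon (chr16:36615237-36616090) ran from 1.28 through 1.38 to 1.93 CPM in WT and 2.87, 3.32 and 4.0 in unstimulated AhR-KO libraries, and 1.53, 1.91 and 2.18 against 2.93, 3.43 and 4.33 with LPS. The genotypes did not overlap, at log2 differences of 1.15 ± 0.14 and 0.89 ± 0.13 (edgeR adjusted p = 3.46e-08 and 4.12e-07). An intronic peak (chr16:36645036-36646081) was higher by 0.83 ± 0.11 and 0.60 ± 0.11, with medians of 7.31 and 13.5 CPM without and 6.26 and 9.65 with LPS in WT and AhR-KO. The call with LPS was lost with library totals (0.57) and without WT LPS replicate 2 (0.54). Unlike the peak past the gene end, these Cd86 sites were not called for LPS in either genotype.

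At Cd40, 1 of 9 peaks was higher in AhR-KO without LPS and 4 with it, and 0 were lower. The calls with LPS include the peak over the start site of the neighbouring 1700025C18Rik. The single call without LPS was the upstream peak shown above (chr2:165042876-165043596), which ran from 1.94 through 2.44 to 3.71 CPM in WT and 4.72, 5.50 and 5.81 in unstimulated AhR-KO libraries, a 2.03-fold difference (edgeR adjusted p = 9.40e-09). With LPS it held 7.46, 8.43 and 9.90 CPM in WT and 11.5, 12.3 and 13.6 in AhR-KO, where the 1.45-fold difference stayed under the threshold. The peak past the Cd40 gene end was 1.63-fold higher in AhR-KO with LPS (edgeR adjusted p = 6.22e-08), with 6.98 to 11 CPM in WT against 14.9 to 16.7 in AhR-KO libraries.

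Among the PD-1 ligands, the upstream Cd274 peak inside Plgrkt (chr19:29354849-29357019) was 1.54-fold and 1.80-fold higher in AhR-KO without and with LPS, with ranges of 7.13 to 8.96 against 11.9 to 14.7 CPM and of 9.44 to 11.8 against 16.4 to 20.8. In contrast, the Pdcd1lg2 peak at chr19:29453596-29455486, over an exon and annotated UTR, was lower in AhR-KO. It ran from 9.07 through 10.1 to 13.1 CPM in WT and 3.86, 4.32 and 4.52 in AhR-KO without LPS, a fall of 1.30 ± 0.11 on the log2 scale (edgeR adjusted p = 1.81e-11). With LPS it held 7.95, 10.5 and 12.8 CPM in WT and 5.63, 6.18 and 7.69 in AhR-KO.

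Cd80 had more lower than higher calls in AhR-KO: without LPS, 4 of 21 tested peaks were lower and 0 were higher, and with it the numbers were 4 and 1. Without WT LPS replicates 1, 2 and 6, a choice made after seeing the data and described below, the numbers with LPS were 1 and 2. With all libraries, 12.6% of all tested peaks were lower and 9.95% higher without LPS, and 13.1% and 13.4% with it. An intronic peak (chr16:38493215-38494124) ran from 2.33 through 3.55 to 4.82 CPM in WT and 1.01, 1.31 and 1.61 in AhR-KO without LPS, and 2.38, 3.0 and 3.73 against 1.23, 1.81 and 1.99 with it. The libraries of the genotypes did not overlap, and AhR-KO was 2.74-fold and 1.74-fold lower (edgeR adjusted p = 5.27e-09 and 4.36e-05). At Havcr2, the peak over an internal exon (chr11:46466638-46467402) was lower in AhR-KO without LPS, at 8.39 to 11.8 against 16.3 to 21.5 CPM (2.02-fold, edgeR adjusted p = 1.37e-12), and the LPS-responsive intronic peak of the same gene was 1.59-fold and 1.64-fold higher.

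The response to LPS itself differed between genotypes at 13 member peaks. The interaction, the log2 change with LPS in AhR-KO minus that in WT, was lower at 6 of 138 (4.35%) and higher at 7 (5.07%), against 4.58% and 5.83% of all tested peaks, so that the members lay close to the background. The 13 peaks belonged to 7 of the 9 genes, and Cd40 and Cd274 had none.

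The largest of them on the log2 scale was the intronic Icosl peak of 169 bases (chr10:78071382-78071550). It held 0.305 to 0.662 CPM in the unstimulated WT libraries, 0.170 to 0.478 in the unstimulated AhR-KO ones and 0.122 to 0.497 in AhR-KO LPS libraries, and 0.660, 1.17, 1.30, 1.71, 2.09 and 2.60 in the WT LPS libraries. The WT LPS group alone was raised, although its lowest library lay within the range of WT unstimulated. LPS raised it 3.48-fold in WT (edgeR adjusted p = 1.56e-06), the change in AhR-KO was 0.10 ± 0.37, and the interaction was -1.70 ± 0.49 (edgeR adjusted p = 0.0151). With LPS, AhR-KO was 4.57-fold lower (edgeR adjusted p = 8.87e-08). Without WT LPS replicates 1, 2 and 6, described below, the interaction was -1.10 and no longer called (edgeR adjusted p = 0.0991). These libraries hold the highest values of this same peak, so that leaving them out had to make the difference smaller.

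The downstream Cd83 peak (chr13:43806533-43807901, shown above) was already higher in unstimulated AhR-KO. It held 0.574, 1.01 and 1.24 CPM (lowest, median, highest) in WT unstimulated, 2.33, 3.52 and 4.61 in unstimulated AhR-KO, 2.01, 4.0 and 6.13 in WT LPS and 4.93, 5.65 and 7.40 in AhR-KO LPS libraries. AhR-KO was 3.54-fold higher without LPS, LPS raised it 4.17-fold in WT and 1.67-fold in AhR-KO, and the interaction was -1.32 ± 0.31 (edgeR adjusted p = 0.00413). The downstream Pdcd1lg2 peak at chr19:29484076-29484339 was also higher in unstimulated AhR-KO, with medians of 1.43 CPM in WT and 2.64 in AhR-KO, but not with LPS, at 4.11 and 3.66, and its interaction was -0.96 ± 0.21 (edgeR adjusted p = 0.00206).

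Other peaks were lower in unstimulated AhR-KO and rose there with LPS. At the Havcr2 exon peak the medians were 20 and 9.27 CPM without and 26 and 21.4 with LPS in WT and AhR-KO, and the interaction was 0.69 ± 0.11 (edgeR adjusted p = 2.57e-05). At the Pdcd1lg2 peak over an exon and UTR it was 0.59 ± 0.15 (edgeR adjusted p = 0.00779), at the edge of the fold threshold and lost with RLE size factors, library totals, no filter on low counts and DESeq2. At an intronic Cd80 peak (chr16:38468495-38469105), named after its values were seen, AhR-KO went from 0.274 to 0.787 CPM without LPS to 0.811 to 1.76 with it, while WT libraries held 1.06 to 2.51 and 1.32 to 2.09. At Icosl, the upstream peak rose more in AhR-KO (interaction 0.66 ± 0.11, edgeR adjusted p = 0.000100) and the downstream peak fell more (-0.61 ± 0.13, edgeR adjusted p = 0.00144), a difference that was not called without WT unstimulated replicate 5 (-0.58) or WT LPS replicate 2 (-0.54), nor without the 3 WT LPS libraries (-0.40).

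**Figure D4:**
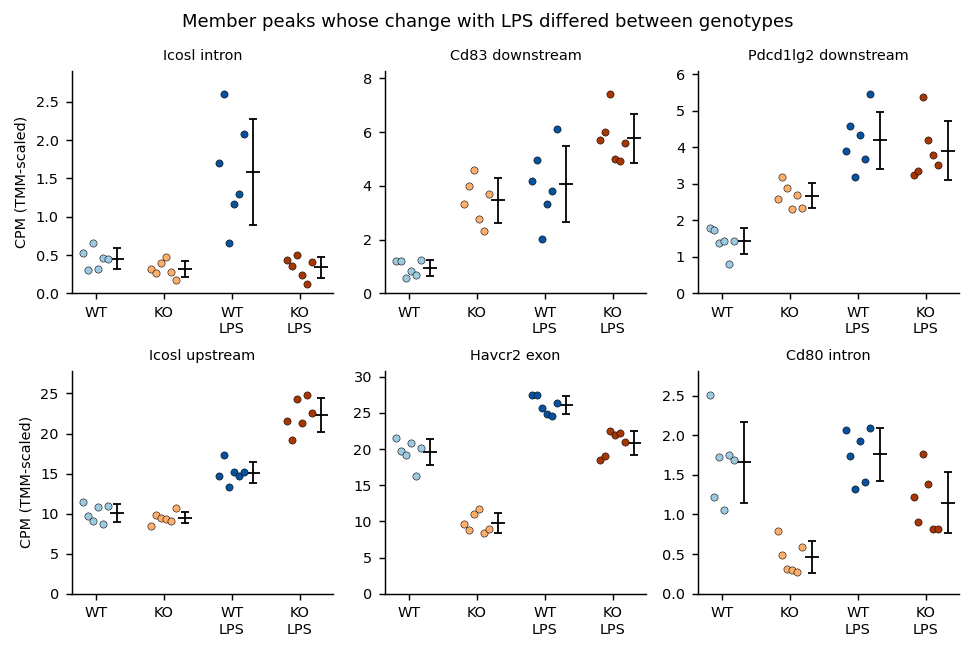
TMM-scaled CPM in each library at 6 member peaks whose change with LPS differed between genotypes, on axes from 0, with the mean and SD of 6 libraries beside the points. The Icosl intron peak was raised in WT LPS only, the Cd83 and Pdcd1lg2 downstream peaks were already higher in unstimulated AhR-KO, and the Havcr2 and Cd80 peaks were low in that group.

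Start-site peaks of dendritic cell markers moved with the groups. Of 8 such markers 7 had a start-site peak and 6 were tested, and their summed level ran from 62.6 to 76.1 CPM in WT unstimulated, 75.7 to 86.8 in AhR-KO unstimulated, 65.1 to 114 in WT LPS and 56.9 to 64.8 in AhR-KO LPS libraries. Clec9a had no peak. Fscn1, an actin-bundling protein of mature dendritic cells, held 7.75 to 26.8 CPM in WT LPS against 1.91 to 5.33 in AhR-KO LPS libraries, and Ccr7, their homing receptor, 3.27 to 10.5 against 1.75 to 4.47. Flt3, a growth factor receptor of their precursors, was lower in AhR-KO in both conditions. Other markers of the list went the other way without LPS: Batf3 held 17.9 to 22.5 CPM in unstimulated AhR-KO against 12.7 to 17 in WT, Ciita 26.2 to 30.1 against 18.9 to 21.9, and Zbtb46 had means of 25.1 and 21.6. These differences were under 1.5-fold, and with LPS the AhR-KO and WT ranges of all 3 overlapped. Within WT LPS, replicates 1, 2 and 6 had the highest Fscn1, at 21.4, 25.8 and 26.8 CPM, and the highest intronic Icosl peak, at 1.71, 2.60 and 2.09. The other 3 held 7.75, 13.5 and 11.9 CPM of Fscn1 and 0.660, 1.17 and 1.30 of the Icosl peak.

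Without these 3 WT LPS libraries, a choice made after seeing the data, the lower calls of AhR-KO against WT with LPS went from 13 to 3 member peaks, while those over all tested peaks went from 13.1% to 11.5%. The 3 were the intronic Icosl peak at -1.58, the upstream Cd83 peak at chr13:43767616-43768281 and the intronic Cd80 peak. Higher calls numbered 20 in place of 18, while those over all tested peaks went from 13.4% to 10.9%. The calls for LPS in WT were 53 higher and 15 lower in place of 55 and 14, beside 24.9% and 20% of all tested peaks. Among the 10 lower calls that were lost, the Pdcd1lg2 peak over an exon and UTR stood at -0.56, just under the fold threshold. At some lost peaks the libraries left out were the highest of WT LPS, so that the difference had to become smaller there. The intronic Cd274 peak from 29374939 held 316, 332 and 342 read pairs in them, against 158, 235 and 169 in those kept. The choice also left WT LPS with 3 libraries, so the drop in lower calls cannot be read as a result about the members. The intronic Cd86 peak at chr16:36645036-36646081, higher in AhR-KO with LPS, went to 0.46 and was no longer called. The part of dendritic cells in these differences was not tested. Of the alveolar macrophage markers, 4 of 6 were higher in AhR-KO without LPS and 1 with it, beside 9.95% and 13.4% of all tested peaks. Of the 6 macrophage markers, 0 were called between genotypes in either condition. Kit, a mast cell and progenitor receptor, was lower in AhR-KO in both conditions.

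**Figure D5:**
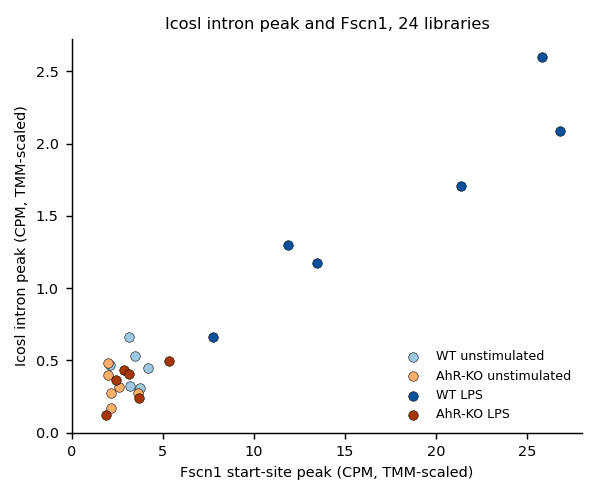
CPM of the intronic Icosl peak against CPM of the Fscn1 start-site peak in the 24 libraries, both axes from 0. The 6 WT LPS libraries spread from 7.75 to 26.8 CPM of Fscn1 and from 0.660 to 2.60 of the Icosl peak, and all other libraries sit at or below 5.33 and 0.662.

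The authors also called broad peaks in each library separately. Of the 139 member peaks, 64 overlapped a broad peak in all 24 libraries. WT unstimulated libraries all had one at 74 and AhR-KO unstimulated at 82, against 95 in either LPS group. Depth moved with these numbers, with median totals of 20.8 and 22.6 M read pairs in the WT and AhR-KO unstimulated and 30.4 and 25 in the LPS groups, and its part in them was not tested. The counts of this paragraph were made for the members only, and no share over all consensus peaks stands beside them. A broad peak in all 12 LPS and 0 of 12 unstimulated libraries was found at 3 members, which were an upstream peak each of Cd274 and Cd40 and a downstream peak of Cd80. The intronic Icosl peak was called in 2 of 6 WT LPS libraries and in 0 of the other groups, and the downstream Cd83 peak in 0 of 6 WT unstimulated libraries and in 6 of 6 of each other group.

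The 6 motifs, searched on both strands of the central 300 bases and each counted on its own where matches overlapped, were found about as often in members as in all 184060 peaks on reference chromosomes. The AhR core GCGTG was in 19 of 139 members (13.7%, against 16% of all peaks), the NF-κB motif GGNNTTTCC in 7 (5.04% against 6.75%), the interferon response motif GAAANNGAA in 20 (14.4% against 10.8%), the AP-1 motif TGANTCA in 23 (16.5% against 17.9%), the PU.1 motif GAGGAAGT in 12 (8.63% against 7.34%) and the C/EBP motif TTGCNNAA in 22 (15.8% against 15.7%). Of the 55 members that rose with LPS in WT, 13 held the AP-1, 9 the C/EBP and 8 the AhR letters. The interferon response, NF-κB and PU.1 letters were in 8, 4 and 3 of them. Of the 14 that fell, the numbers in the same order were 2, 4, 0, 1, 0 and 3. A match is a description of letters and not of binding.

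The wider pathway was read from the start-site peaks of 32 other costimulatory and checkpoint genes, of which 25 had one. In WT 4 rose and 3 fell with LPS, in AhR-KO 6 rose and 8 fell, and between genotypes AhR-KO was lower at 1 and higher at 1 unstimulated peak, and lower at 2 and higher at 0 with LPS. Traf1, an adaptor of TNF receptors including CD40 signalling, rose in WT from 7.66 ± 0.51 to 32.1 ± 1.9 CPM (SD, n = 6), and AhR-KO libraries went from 7.81 ± 0.83 to 33.8 ± 2.6. The ligands Cd70 (log2 change 2.10 ± 0.20 in WT and 1.73 ± 0.21 in AhR-KO) and Tnfsf9 (0.61 ± 0.09 and 0.87 ± 0.09) rose, and so did Slamf7 (1.58 ± 0.16 and 1.95 ± 0.15). The inhibitory ligand Vsir (-0.59 ± 0.10 and -1.04 ± 0.10), Tnfsf18 (-1.16 ± 0.15 and -0.73 ± 0.15) and the MHC class II receptor Lag3 (-0.75 ± 0.30 and -1.56 ± 0.28) fell. Icos, the receptor of ICOSL, was lower in AhR-KO, by 1.24 ± 0.22 without and 1.89 ± 0.23 with LPS, and Cd70 by 0.68 ± 0.16 with LPS.

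For 8 members, the gene outside the set whose start-site peak followed theirs most closely was found over the 24 libraries and 13737 genes, by Pearson's r of log2 CPM with a pseudocount of 0.5. It was Traf1 for Cd40 (r = 0.98), Nfkbie for Cd274 (0.95), Ccl22 for Pdcd1lg2 (0.93), Casp2 for Icosl (0.96), Zfp493 for Havcr2 (0.95), Atp8b4 for Cd200r1 (0.95), Rasl10b for Cd80 (0.94) and Bloc1s6 for Cd86 (0.94). The libraries share groups, so these are descriptions of a common pattern over groups.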

How the data were processed

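The authors processed ATAC-seq reads (bcl2fastq 2.20.0) against mm10 with the nf-core atacseq workflow, called broad peaks per library with MACS2, merged them into consensus peaks, and counted read pairs in each with featureCounts 2.0.1. The deposited count table holds whole read pairs per consensus peak and library, without normalization. The broad peak files deposited by the authors give for each peak a fold enrichment (ratio) and −log10 p and q values, and the text uses their positions.

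Counts were fitted with edgeR 4.0.16 in R 4.3.3 (TMM factors, filterByExpr, quasi-likelihood F test, 24 libraries in 4 groups, Benjamini-Hochberg adjustment), after a test on simulated counts. An SE is the log2 fold change divided by the square root of F. Groups came from the labels. The study describes 6 animals per group. The members and lists were chosen with earlier results of these data known. Named peaks were the start-site peak and the highest other peak of each gene, and for each comparison and direction the 3 DARs of lowest p; those chosen after their values were seen are named as such. Alternatives were RLE factors, library totals, no filter, DESeq2 1.42.0, 2-fold, 5 kb flanks, a replicate block and left-out libraries. Total counts ran from 8.54 to 34.6 M read pairs, which limits precision at peaks under 1 CPM.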

Additional observations from a re-analysis of the deposited data

Results flagged for a closer look

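Single libraries stood apart from the other 5 of their group at 6 of 152 combinations of a named peak and a group by Dixon's 95% criterion, where chance gives about 1 in 20. WT LPS replicate 2 was high at the Cd274 peak over the Plgrkt start (20.7 CPM, next library 17.3) and at the first Cd83 peak (17.5 CPM, the next library at 14). AhR-KO LPS replicate 3 was high at the Havcr2 start-site peak, at 44.6 CPM. WT LPS replicate 5 was high at the downstream Pdcd1lg2 peak from 29478322, at 4.47 CPM. WT unstimulated replicate 1 was low at the LPS-responsive Havcr2 intron peak, at 0.660 CPM, and AhR-KO unstimulated replicate 3 was high at the Cd86 peak past the gene end, at 2.90 CPM.

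The response to LPS differed between genotypes, by edgeR's interaction test, at 9 named peaks. The log2 change in AhR-KO minus that in WT was -1.70 at the Icosl intron peak, -0.61 at the Icosl downstream peak and 0.66 at the Icosl upstream peak. It was -1.32 at the Cd83 downstream peak, -0.96 at the Pdcd1lg2 downstream peak and 0.59 at the Pdcd1lg2 peak over an exon and UTR. It was 1.17 and 0.66 at the Cd80 intron peaks (chr16:38468495-38469105 and chr16:38493215-38494124), and 0.69 at the Havcr2 exon peak. The second Cd80 peak passed narrowly (edgeR adjusted p = 0.0416) and was not called with RLE size factors (0.61, adjusted p = 0.0603) or DESeq2 (0.61, adjusted p = 0.0607).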

How the results depend on the processing

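Of 1059 values of named peaks under the alternatives, for 130 results, 985 kept direction and call, 63 lost the call, 5 gained it, all of them at the Cd80 start-site peak for LPS in WT, and 6 changed sign. The sign changes were all at uncalled values near 0. The Havcr2 intron peak from 46461260 gave 0.012 with RLE factors and with DESeq2 in unstimulated cells, -0.015 for LPS in WT without WT unstimulated replicate 5, and 0.0019 for LPS in AhR-KO with a replicate block within each genotype. The Cd40 start-site peak gave -0.0033 with library totals and -0.0079 without WT unstimulated replicate 5 between unstimulated genotypes. With a fold of at least 2, AhR-KO against WT gave 5 lower and 4 higher members without and 2 lower and 3 higher with LPS, LPS lowered 6 (WT) and 9 (AhR-KO), and the interaction gave 2 lower and 1 higher. Within 5 kb of the genes, 9 members were higher in AhR-KO without and 10 with LPS, LPS lowered 5 (WT) and 7 (AhR-KO), and the interaction was lower at 2. Both settings call fewer members by construction. Without WT LPS replicates 1, 2 and 6, 3 members were lower in AhR-KO with LPS in place of 13, and the cause was not tested. These libraries were chosen after seeing the data and were the highest of WT LPS at some of the lost peaks. Leaving out WT unstimulated replicate 5 or WT LPS replicate 2 gave 13 lower and 18 to 19 higher members between genotypes with LPS, 12 to 15 lower and 55 to 56 higher for LPS in WT, and an interaction of 5 lower and 7 higher. Without WT unstimulated replicate 5, 9 were lower and 17 higher between unstimulated genotypes and 16 lower and 56 higher for LPS in AhR-KO, and without WT LPS replicate 2 the numbers were 10, 17, 17 and 57.

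With the replicate number as a block, the counts were 9 lower and 17 higher between unstimulated genotypes, 13 and 19 with LPS, 14 and 55 for LPS in WT, 16 and 56 for LPS in AhR-KO, and 6 and 8 for the interaction. With a replicate block within each genotype, the interaction was lower at 8 and higher at 9. Deviations of same-numbered WT libraries without and with LPS correlated at 0.037 to 0.29, and 4 of 6 correlated best with their own number. For AhR-KO the range was 0.0038 to 0.17, and 3 of 6 correlated best with their own number. The main fit left the libraries unpaired, and these values do not settle whether the numbers pair them. Peaks under 1 CPM rest on few read pairs, and the shallowest library held 8.54 M read pairs.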
